A study of Mus musculus with 38 samples.

Results

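The genes described here are 41 genes of mitosis and the spindle, named by symbol: the cyclin B and CDK1 machinery of entry into mitosis, the mitotic kinases, motors and other spindle proteins, kinetochore and checkpoint proteins, the chromosomal passenger complex, the proteins of anaphase and of cytokinesis, and the mitotic chromosome proteins Top2a and Mki67. All 41 symbols were rows of the deposited table of 21705 genes, and the rule that lists them uses no measured value. RNA had been sequenced from 38 mouse libraries in 10 groups. Normal kidney (5 libraries) came from wild-type mice given vehicle, and the labels name 2 of these kidneys B6 and 3 KT. MYC tumours (3 libraries) arose in Ksp-rtTA; Tet-O-MYC mice, in which doxycycline (Dox) switches on a MYC transgene in renal tubule cells through the Ksp cadherin promoter. VM tumours (3 libraries) had in addition lost Vhl in the cells where the tamoxifen-inducible KspCreERT2 was active, and VIM tumours (3 libraries) also lacked Ink4a/Arf, the Cdkn2a locus, in every cell of the animal. All tumour mice are labelled as maintained on Dox. The cell lines MYC-2983, VM-3055 and VIM-3039 each came from a single tumour and were plated with or without Dox, 4 libraries in each of the 6 groups, so that every line stands for 1 tumour of its genotype. By the paper's methods, its tumour lines were established and kept in medium with Dox, and RNA was taken the day after this plating. The groups without Dox were therefore cells withdrawn from Dox for about a day. A gene described as rising with Dox was higher than in the withdrawn cells. Libraries 2 and 3 of the MYC tumours are both from mouse 2983, the source of the MYC-2983 line, and were averaged in the tests, and library 2 of the VM tumours is from mouse 3055, the source of the VM-3055 line. Nothing in the labels says that the 4 libraries of a cell group were separate cultures, so the p-values measure the spread between these libraries, which may be technical.

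In a dividing cell the rise of cyclin B with CDK1 drives entry into mitosis, aided by the CDC25 phosphatases, Polo-like kinase 1 and Aurora A. Spindle motors and the microtubule proteins TPX2 and PRC1 build the spindle, the NDC80 complex of the outer kinetochore grips microtubules, and the checkpoint kinases and MAD2 hold back the anaphase-promoting complex until all chromosomes are attached. That complex, with its activator CDC20 and the ubiquitin-conjugating enzyme UBE2C, then destroys securin, the product of Pttg1, and frees separase, the product of Espl1, to cut cohesin. The centralspindlin proteins KIF23 and RACGAP1, with ECT2 and anillin, then drive cytokinesis. RNA of most of these genes is made late in the cell cycle, under the MuvB core complex with B-MYB (Mybl2) and FOXM1, which acts through the cell cycle genes homology region (CHR). The adult kidney, whose tubule cells rarely divide, holds little of this RNA.

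Promoter sequence was taken from RefSeq (build GRCm38.p6), in which 35 of the 41 genes had an entry. A CCAAT box, the letters CCAAT on either strand, lay within the 250 bases before the start of 28 of these 35 genes (80.0%), while 37.5% of the 27025 genes in the RefSeq table had 1 there. A CHR, written here as TTTGAA or TTCGAA on either strand, was found in the same window of 13 of the 35 genes (37.1%) and of 19.6% of all genes. With the 50 bases after the start included, a window chosen after the motif positions were seen, it was found in 28 of 35 (80.0%) and in 21.7% of all genes, and 25 of 35 (71.4%) held both motifs against 8.61% of all genes. The E-box CACGTG was found before the start of 3 of the 35 genes (8.57%, with 6.86% of all genes). These matches are descriptions of letters in a window. The 6 stretches below belong to Espl1 and Kif11, among the 4 genes called with Dox in all 3 lines, and to Cdc20, with the largest change in VIM-3039 cells. Cdk1, Ccnb2 and Top2a are shown as central proteins of mitotic entry and chromosome structure. Of the 4 genes called in all lines, Aurkb had no RefSeq entry. Bub1b, with a CHR 188 and a CCAAT box 113 bases before the start, is not shown. Each runs 5′ to 3′ in the sense of the gene, ends at most 27 bases before the start site, and shows CCAAT boxes and CHRs of either strand in capitals, in lower case otherwise. The positions are on mm9 (NCBI37), the build of the files, by exact match to that genome: Cdc20 at chr4:118109958-118110117 (minus strand), Espl1 at chr15:102126564-102126723 (plus), Kif11 at chr19:37450712-37450871 (plus), Cdk1 at chr10:68815687-68815846 (minus), Ccnb2 at chr9:70269362-70269521 (minus) and Top2a at chr11:98885504-98885663 (minus). None of the 6 stretches holds a base annotated as exonic in GENCODE vM1.
Cdc20: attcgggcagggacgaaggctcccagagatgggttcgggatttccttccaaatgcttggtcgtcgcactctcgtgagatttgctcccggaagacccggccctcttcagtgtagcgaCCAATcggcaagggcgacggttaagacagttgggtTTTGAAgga
Espl1: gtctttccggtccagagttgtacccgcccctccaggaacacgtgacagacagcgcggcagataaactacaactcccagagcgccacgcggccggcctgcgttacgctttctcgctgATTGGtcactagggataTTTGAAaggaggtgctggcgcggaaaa
Kif11: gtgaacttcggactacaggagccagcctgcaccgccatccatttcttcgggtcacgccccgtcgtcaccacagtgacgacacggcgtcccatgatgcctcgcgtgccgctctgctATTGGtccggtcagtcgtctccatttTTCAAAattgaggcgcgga
Cdk1: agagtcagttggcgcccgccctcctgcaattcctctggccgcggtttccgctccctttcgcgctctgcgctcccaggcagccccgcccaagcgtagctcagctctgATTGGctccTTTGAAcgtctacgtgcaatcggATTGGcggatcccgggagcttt
Ccnb2: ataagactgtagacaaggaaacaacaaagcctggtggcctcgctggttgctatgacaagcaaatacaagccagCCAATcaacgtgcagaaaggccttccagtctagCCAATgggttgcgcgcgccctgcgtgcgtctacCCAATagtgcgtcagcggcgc
Top2a: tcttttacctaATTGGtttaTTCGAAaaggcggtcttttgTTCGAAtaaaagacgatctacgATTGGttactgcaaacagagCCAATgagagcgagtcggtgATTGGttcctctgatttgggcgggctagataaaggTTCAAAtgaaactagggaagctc
In the printed stretches Cdc20, Espl1 and Kif11 each show 1 CCAAT box and 1 CHR nearer to the start, Cdk1 shows 2 CCAAT boxes with a CHR between them, Top2a 4 CCAAT boxes and 3 CHRs, and Ccnb2 3 CCAAT boxes. Outside these stretches the same 250 bases hold further CCAAT boxes, 8 bases before the start of Cdc20, 208 before Cdk1, and 227 and 189 before Top2a. They also hold further CHRs, 15 bases before the start of Cdk1, 167 before Ccnb2 and 179 before Top2a. Pttg1, the gene that was lower in tumours than in kidney, is among the 7 genes with no CCAAT in the 250 bases before the start, together with Kif2c, Ndc80, Nuf2, Mad2l1, Birc5 and Anln.

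Values are in the authors' units, RSEM estimates brought to an upper quartile of 1000 in all libraries. The depth was 8.22 to 36.6 M estimated reads per library, and 3 reads, used here as the floor, were worth 1.16 to 5.65 units. The mouse Myc row held 1308, 1399, 1406 and 1345 units in VM-3055 cells without Dox and 405, 413, 338 and 380 with Dox, and it was also lower with Dox in every VIM-3039 and MYC-2983 library (log2 change −1.96 ± 0.054 SE and −1.44 ± 0.032 SE). Whether reads of the transgene count in this row is not given in the sources used here, so the row does not check the Dox labels. On mm9, genes on the opposite strand overlap Cdc20 (Elovl1), Ube2c (Tnnc2), Cdc25b (Spef1), Cdc25c (Gm3550), Kif4 (Pdzd11), Kif20a (Cdc23), Cdca8 (9930104L06Rik) and Prc1 (6330403N20Rik), and small nucleolar RNA genes overlap Ect2 (SNORA17) and Top2a (SNORA42), and whether the counting used strand is not given in the sources used here. Vhl was 612 to 772 units in kidney and 468 to 560 in MYC tumours, 40.2 to 79.9 in VM and 219 to 312 in VIM tumours, and at most 38.8 in the VM-3055 and 24.9 in the VIM-3039 libraries. Cdkn2a was 3392 to 4347 units in VM tumours and 30.1 to 95.5 in VIM tumours. In MYC tumours it was 108, 2872 and 59.3, so the 2 libraries of mouse 2983 lay far apart.

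Across the 10 groups the 41 genes moved largely as a block. The mean of log2(value + 1) over the 41 genes was 4.31 to 4.92 in the 5 kidneys, 8.79 to 10.26 in the 9 tumours and 9.62 to 10.94 in the 24 cell libraries, so every tumour and every cell library lay above every kidney. Within each line all 4 libraries with Dox lay above all 4 without: 10.90 to 10.94 against 10.28 to 10.32 in MYC-2983, 10.84 to 10.88 against 10.01 to 10.11 in VM-3055, and 10.70 to 10.72 against 9.62 to 9.70 in VIM-3039. The group means of the lines were 10.30, 10.05 and 9.65 without Dox and 10.92, 10.86 and 10.71 with Dox. Of the 41 genes, 21 had their highest group mean in MYC-2983 cells with Dox, 15 in the Dox group of VM-3055 and 3 in that of VIM-3039, Spc25 in VM tumours and Pttg1 in normal kidney. In bulk RNA, fewer cells in division and less RNA of these genes per cell cannot be told apart. Replicates of the lines were close, with a median coefficient of variation over the 41 genes of 2.67% to 5.0% per group, whereas it was 37.4% to 46.9% among tumours and 42.5% among kidneys.

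**Figure D1:**
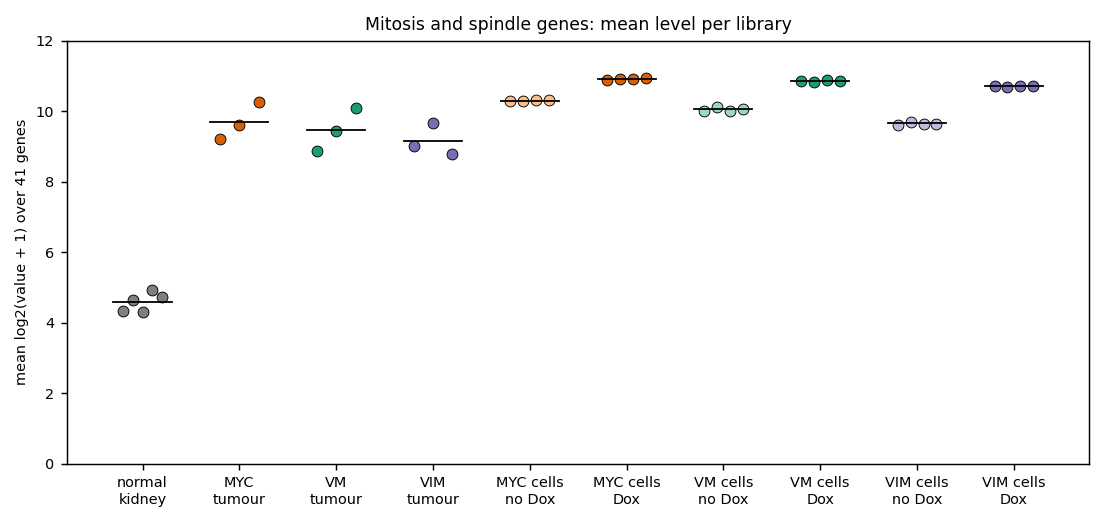
Mean of log2(value + 1) over the 41 mitosis and spindle genes (vertical axis) in each of the 38 libraries by group (horizontal axis), with 1 point per library and a line at the group mean. The 5 kidneys lie between 4.31 and 4.92, the tumours between 8.79 and 10.26, and each line's 4 libraries with Dox lie above its 4 without.

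**Figure D2:**
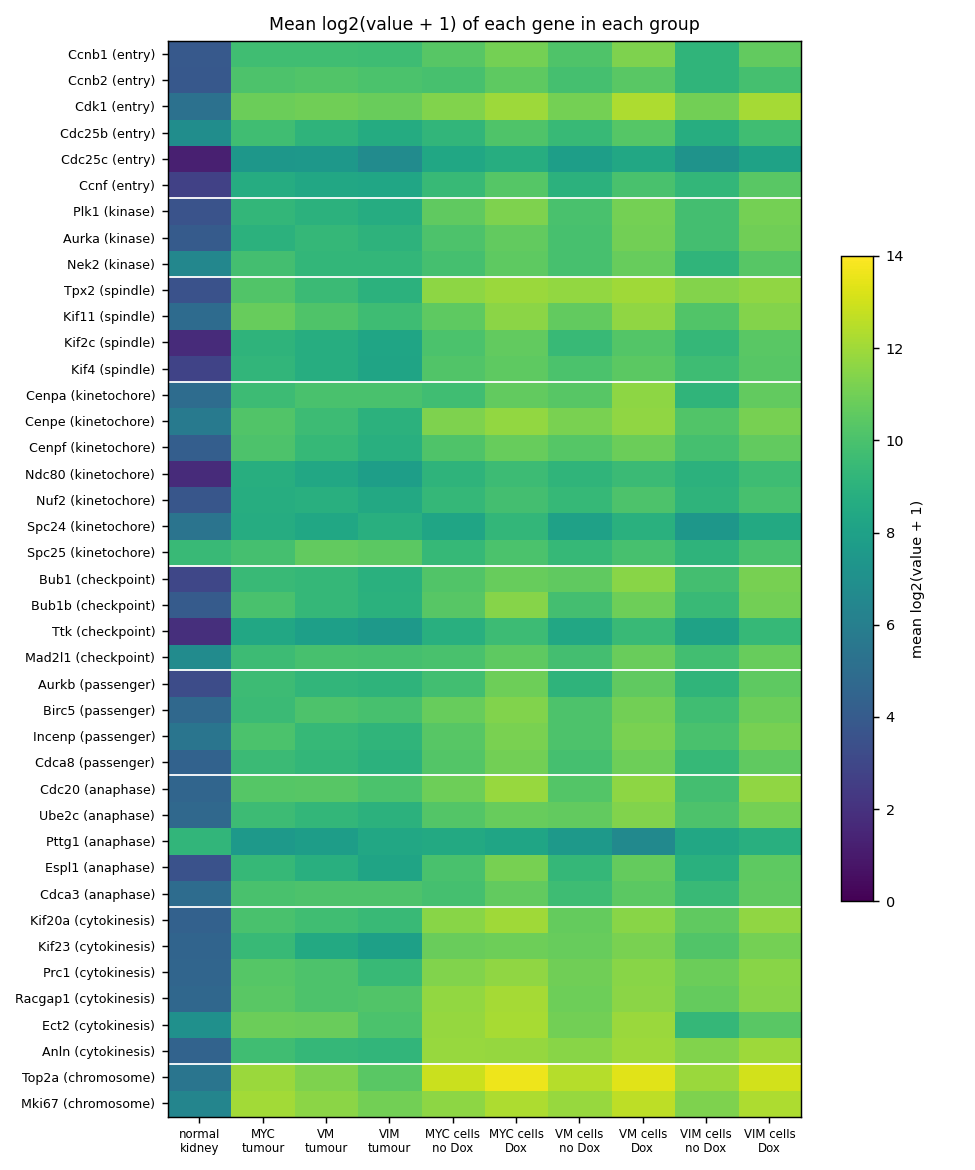
Mean of log2(value + 1) of each of the 41 genes (rows, ordered by role) in the 10 groups (columns), on a colour scale from 0 to 14. Colours are to be compared along a row, since values are not per length. Pttg1 is brightest in normal kidney, and Spc25 differs little between kidney and the other groups beside the rest of the set.

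The tumours were compared with normal kidney to ask how far the RNA of dividing cells set them apart. Nearly the whole set was higher. A gene is called here when limma's adjusted p was under 0.05 and the log2 difference over 1. In MYC tumours 39 of the 41 genes were called higher (19.4% of the 16491 genes tested) and 1 lower (17.7%), in VM tumours 40 higher (17.3%) and 1 lower (22.5%), and in VIM tumours 39 higher (18.9%) and none lower (20.7%). Of the VIM genes not called, Pttg1 and Spc25, the first was lower and the second higher at an adjusted p under 0.05. The median log2 difference over the set was 5.55, 5.30 and 5.0 in MYC, VM and VIM tumours, while the median over all genes tested was 0.12, −0.05 and 0.01. The 3 comparisons share their 5 kidneys. Against the B6 kidneys alone 39, 40 and 40 genes were called in either direction, and against the KT kidneys alone 40, 40 and 40. The shares of all genes called against these smaller kidney groups are not given here.

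Among the genes of mitotic entry, Cdk1, the catalytic partner of the B-type cyclins, was 43.3, 29.2, 30.8, 47.2 and 32.9 units in the kidneys, 1553, 1596 and 2617 in MYC tumours, 1692, 2224 and 2080 in VM tumours and 1569, 1947 and 1904 in VIM tumours. Every tumour was above every kidney by a wide margin, with log2 differences of 5.61 ± 0.3, 5.75 ± 0.24 and 5.60 ± 0.25 SE (adjusted p = 7.62e-06, 1.32e-07 and 1.03e-06). Ccnb1, which encodes cyclin B1, was 17.3, 7.3, 16.1, 24.4 and 10.1 in kidney against 508, 801 and 1383 in MYC, 622, 655 and 1488 in VM and 678, 970 and 833 in VIM tumours (log2 differences 5.65 ± 0.53, 5.83 ± 0.46 and 5.78 ± 0.4 SE). The CDC25 phosphatases remove the inhibitory phosphates from CDK1, and the 2 measured here differed in their kidney level. Cdc25b held 88.2 to 155 units there and rose least of the 6 entry genes, by 2.65, 2.22 and 1.75 on the log2 scale (adjusted p = 0.000416, 8.03e-05 and 0.000515). Cdc25c had 0 to 3 reads in each kidney, 6 in all, and its mean was at least 44.3-fold, 40.5-fold and 26.3-fold higher in MYC, VM and VIM tumours, taken against 3 reads per kidney. Ccnb2, cyclin B2, was among the genes with the largest differences in VIM tumours, with 8.65, 10.2, 10.7, 55.4 and 7.59 units in the kidneys and 1000, 987 and 1156 in the tumours (6.19 ± 0.58 SE, adjusted p = 2.58e-05). The highest of those kidneys, library 4, lay well apart from the other 4.

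The mitotic kinases and the spindle proteins followed the same pattern. Plk1, Polo-like kinase 1, was 10.4, 8.79, 10.7, 14.7 and 11.4 in kidney and 494 to 1004, 346 to 764 and 218 to 883 in MYC, VM and VIM tumours (log2 differences 5.67 ± 0.37, 5.39 ± 0.37 and 5.10 ± 0.46 SE). Kif2c, a kinesin that takes microtubules apart at centromeres, and Ndc80, the kinetochore subunit that binds microtubules, were among the genes with the largest differences in all 3 tumour kinds. Kif2c was 0, 8.76, 5.35, 4.89 and 0 units in the kidneys and 429, 491 and 835 in MYC tumours, 340, 358 and 588 in VM and 294, 509 and 187 in VIM tumours. Its log2 differences were 7.36 ± 1.0, 7.0 ± 0.83 and 6.55 ± 0.85 SE (adjusted p = 0.000533, 7.53e-05 and 0.000161), on a kidney level of 0 to 6 reads that makes their size and rank depend on the pseudocount of 1. Ndc80, with 1 to 4 reads per kidney, was 321, 434 and 603 units in MYC tumours, 257, 238 and 652 in VM and 241, 267 and 191 in VIM tumours (log2 differences 6.94 ± 0.55, 6.68 ± 0.53 and 6.12 ± 0.46 SE). Tpx2, which activates Aurora A on the spindle, was 13.8, 2.92, 6.69, 19.5 and 22.8 in kidney and 698, 1352 and 1630 in MYC tumours (6.45 ± 0.74 SE, adjusted p = 0.00023). Bub1, a kinase of the spindle checkpoint, was 6.92, 8.76, 4.02, 6.51 and 8.86 in kidney and 320, 779 and 1101 in VM tumours (6.38 ± 0.47 SE, adjusted p = 3.73e-06). For these 5 genes too no tumour overlapped a kidney.

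The other checkpoint, passenger and chromosome genes differed in how much RNA the kidney already held. Mad2l1, encoding the checkpoint protein MAD2, was at 128, 104, 108, 107 and 86 units in kidney and at 478 to 1274, 599 to 1771 and 784 to 1307 in MYC, VM and VIM tumours, a log2 difference of 2.95 ± 0.22, 3.19 ± 0.32 and 3.14 ± 0.24 SE. Aurkb, the kinase of the passenger complex, was 5.19, 13.1, 6.69, 14.7 and 6.33 in kidney and rose by 6.27, 5.97 and 5.88 (adjusted p = 4.64e-05, 8.01e-06 and 7.48e-06). Its partner Birc5, survivin, was 24.2, 23.4, 38.8, 34.2 and 15.2 in kidney and rose by 4.84, 5.36 and 5.20 (adjusted p = 6.14e-05, 3.73e-06 and 3.34e-06). All 4 passenger genes were called higher in each of the 3 comparisons. Cdc20, the activator of the anaphase-promoting complex, was 29.4, 23.4, 8.03, 48.9 and 21.5 in kidney against 624, 1799 and 1886 in MYC, 1084, 1161 and 1735 in VM and 960, 1505 and 804 in VIM tumours (log2 differences 5.50 ± 0.67, 5.77 ± 0.49 and 5.47 ± 0.5 SE). Top2a, the topoisomerase that untangles sister chromatids, rose from 30.7 to 65.1 in kidney to 2570, 3994 and 5373 in MYC tumours, 1193, 3034 and 4457 in VM and 1109, 2595 and 934 in VIM tumours (log2 differences 6.31 ± 0.35, 5.86 ± 0.41 and 5.0 ± 0.38 SE). Mki67, the gene of the Ki-67 antigen that coats mitotic chromosomes, was 81.3, 70.1, 61.6, 122 and 83.5 in kidney and 2702, 3569 and 7685, 1965, 3440 and 4281 and 2179, 3965 and 1035 in the 3 tumour kinds (5.56 ± 0.34, 5.22 ± 0.29 and 4.65 ± 0.4 SE). Again no tumour reached down to a kidney in any of these genes.

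Securin and Spc25 stood apart. Pttg1 was 343, 704, 653, 617 and 717 units in the kidneys, 240, 170 and 171 in MYC tumours, 282, 247 and 158 in VM and 403, 263 and 343 in VIM tumours. It fell by 1.53 ± 0.31 SE on the log2 scale in MYC tumours (adjusted p = 0.00352) and by 1.40 ± 0.28 SE in VM tumours (adjusted p = 0.00217). In VIM tumours, with 1 kidney inside their range, the log2 difference was −0.82 ± 0.27 SE (adjusted p = 0.0269), short of the fold threshold. That kidney, library 1, is labelled B6, and against the B6 kidneys alone Pttg1 was not called in MYC or VM tumours (log2 differences −1.22 and −1.08). With limma's voom on reads recovered from the values the differences were −1.04 in MYC (adjusted p = 0.0437) and −0.97 in VM tumours (adjusted p = 0.0263). The call in VM tumours was lost there. Spc25, a partner of NDC80 in the same complex, held 635, 943, 450, 562 and 1251 in the kidneys, so that kidney and tumours overlapped (1004, 779 and 1016 in MYC, 989, 1348 and 2948 in VM and 1520, 1178 and 1639 in VIM tumours). Its log2 differences were 0.40 ± 0.36, 1.14 ± 0.4 and 1.0 ± 0.31 SE (adjusted p = 0.384, 0.0349 and 0.023), called in VM tumours alone, and whether the tumour kinds differ in it is given by the tests between tumours. Spc25 and Pttg1 were the only 2 of the 41 genes with a mean kidney value of at least 200 units.

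Marker genes of other cell types were read beside these differences. The sum of 9 kidney epithelium markers was 222668 to 313900 units in kidney, 16911 to 25890 in MYC, 16443 to 21914 in VM and 9628 to 24768 in VIM tumours. Of the 7 leukocyte markers 4 were above the floor in every kidney and 5 in every library of each tumour kind, and their sum was 1277 to 2254 units in kidney, 3255 to 15237 in MYC, 2186 to 7747 in VM and 7372 to 14083 in VIM tumours. Lyz2, a myeloid gene, was the highest of them in tumours (267 to 455 units in kidney, 1610 to 11299 in MYC, 1325 to 5539 in VM and 4851 to 11377 in VIM tumours). Ptprc, the pan-leukocyte gene of CD45, was not higher in step: it was 346, 216, 325, 313 and 342 in kidney, 424, 248 and 77.7 in MYC, 132, 28.9 and 60.4 in VM and 245, 226 and 93.6 in VIM tumours. Endothelial markers (4 genes) summed to 2772 to 4649 units in kidney and 187.9 to 1917 in tumours. The sums of 4 fibroblast markers overlapped, at 601.1 to 1913 units in kidney, 516.9 to 4454 in MYC, 279.4 to 828.2 in VM and 365.3 to 1024 in VIM tumours. Cd3e, a T cell marker, was at 0 in all VIM tumours. The part of these cells in the tumour differences was not tested. In the cell lines the mean over the 41 genes stood above kidney as well. Endothelial markers summed there to at most 12.5 units, and Cd3e was at 0 in every library of 5 of the 6 groups. Other markers were present in the lines: leukocyte markers summed to 217.5 to 1013 units and fibroblast markers to 1.754 to 504. Csf1r, a leukocyte marker, averaged 859 units in VM-3055 cells without Dox and 857 in kidney.

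**Figure D3:**
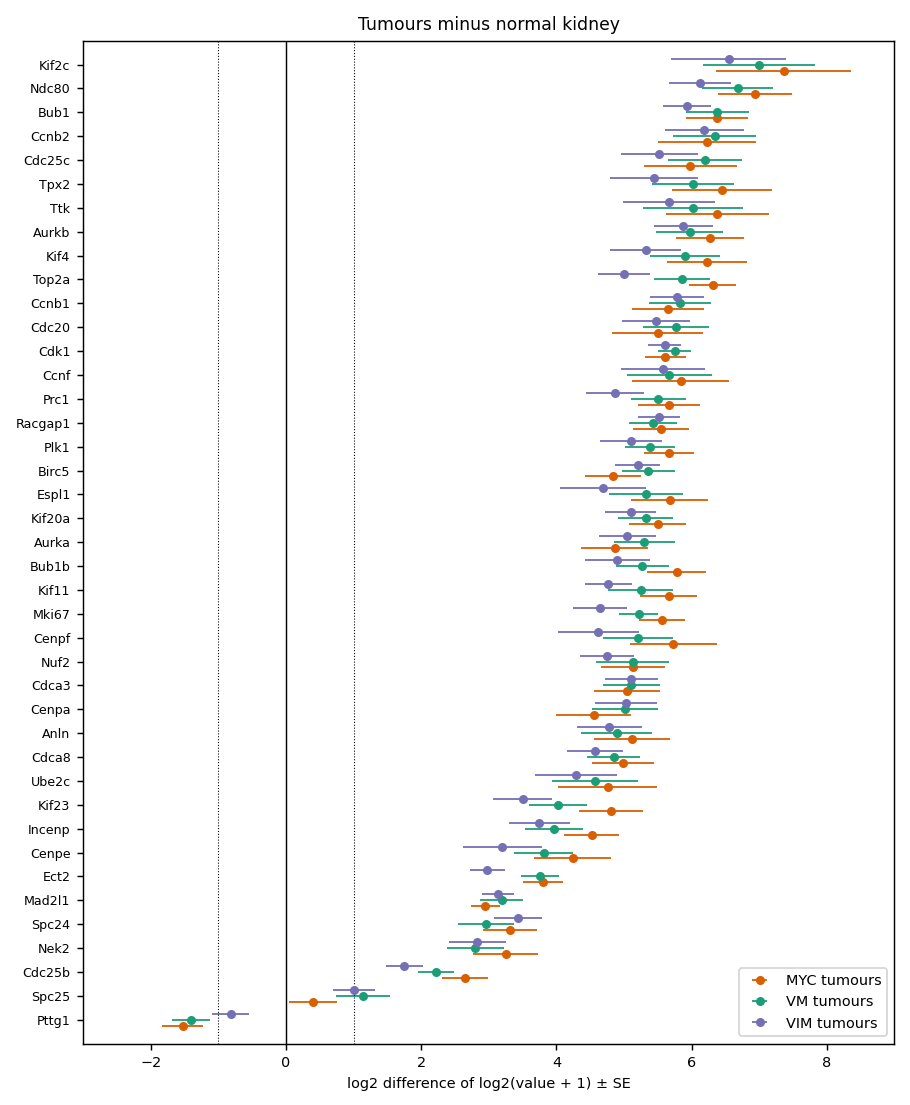
Log2 difference between tumours and normal kidney with its SE (horizontal axis) for each of the 41 genes (vertical axis, ordered by the VM tumours), 1 colour per tumour kind. Dotted lines mark a log2 difference of 1 in either direction. Nearly all genes lie to the right, up to 7.36 for Kif2c in MYC tumours, while Pttg1 lies to the left in all 3 kinds and Spc25 close to the dotted line.

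No gene of the set was called between tumour kinds. In VIM against VM tumours the log2 differences ranged from −0.86 to 0.57, and the lowest adjusted p was 0.321, for Ect2. In VM against MYC tumours they ranged from −0.80 to 0.73 (lowest adjusted p 0.496), and in VIM against MYC tumours from −1.32 to 0.71 (lowest adjusted p 0.286, for Ect2). At an unadjusted p under 0.05 the counts were 1, 0 and 3 genes of 41. The share of all genes at that unadjusted threshold was not counted, so nothing about the set is read from these counts. Over all genes 0.174% were called higher and 0.0746% lower in the first of these comparisons, 0.0% in the second, and 0.00616% higher and 0.0% lower in the third. Ect2, the exchange factor that activates RhoA at the division plane, was 1612, 1599 and 2538 in MYC, 1539, 1496 and 2470 in VM and 945, 1229 and 967 in VIM tumours. Its log2 difference in VIM tumours was −0.78 ± 0.27 SE from VM and −0.81 ± 0.27 SE from MYC. These differences did not pass the adjusted test, in which the 3 MYC libraries counted as 2 tumours, and the missed threshold does not show that the tumour kinds were alike. Within a tumour kind the libraries spread widely: the mean over the set was 9.21, 9.61 and 10.26 in the MYC, 8.86, 9.43 and 10.10 in the VM and 9.02, 9.68 and 8.79 in the VIM libraries. Between the 2 libraries of mouse 2983 the median log2 difference over the set was 0.59, with 37 genes higher in library 3. No median or share over all genes was computed for these 2 libraries, so this is not read as a trait of the set.

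Dox was compared with about a day of its withdrawal in each line to ask how the set follows the transgene. RNA of nearly every gene was higher with Dox, with the largest median in the VIM-3039 and the smallest in the MYC-2983 line. In VM-3055 cells 40 of 41 genes were higher at an adjusted p under 0.05 (26.1% of the 14319 genes tested), of which 13 were called (5.92%), and Pttg1 was lower (47.7%). In VIM-3039 cells all 41 were higher (31.1% of 13998) and none lower (44.2%), 24 of them called (7.67%). In MYC-2983 cells 39 were higher (31.5% of 15104), 4 of them called (4.49%), Pttg1 was lower (44.0%) and Anln did not pass. No gene of the set was called lower in any line. The median log2 change over the set was 0.85, 1.1 and 0.62 in VM-3055, VIM-3039 and MYC-2983 cells, beside −0.26, −0.15 and −0.13 over all genes tested. These medians of all genes moved to −0.03, −0.01 and −0.01 after TMM rescaling, and the medians of the set to 1.1, 1.26 and 0.75, with 25, 31 and 8 genes called. Over all genes the counts called higher grew as well, from 847, 1074 and 678 as deposited to 1412, 1433 and 901. Over all genes, the share of lower among the called was 76.2%, 68.4% and 77.0% as deposited and 58%, 56.8% and 67.4% after TMM rescaling.

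The 4 genes called in all 3 lines were Aurkb (chr11:68859149-68865166, plus strand), Espl1 (chr15:102126724-102154787, plus strand), Bub1b (chr2:118423947-118467328, plus strand) and Kif11 (chr19:37450893-37496349, plus strand), with positions on mm9. Aurkb was 522, 547, 537 and 602 units without Dox and 1559, 1518, 1471 and 1526 with Dox in VM-3055, 555, 647, 539 and 562 and 1488, 1439, 1488 and 1453 in VIM-3039 cells. In MYC-2983 cells Aurkb was 837, 851, 875 and 850 without and 1850, 1924, 1955 and 1929 with Dox. Its log2 change was 1.46 ± 0.051, 1.35 ± 0.048 and 1.16 ± 0.028 SE (adjusted p = 3.91e-14, 1.79e-16 and 8.31e-17), the largest of the set in VM-3055 and MYC-2983 cells. Espl1, separase, whose promoter is printed above, was 649, 635, 621 and 647 without and 1793, 1690, 1558 and 1577 with Dox in VM-3055, 418, 505, 453 and 501 and 1480, 1490, 1430 and 1599 in VIM-3039 cells. In MYC-2983 cells Espl1 was 1020, 1079, 996 and 1015 without and 2137, 2122, 2320 and 2264 with Dox. The change was 1.37 ± 0.051, 1.68 ± 0.054 and 1.1 ± 0.034 SE. In both genes the 2 groups of each line were far apart. Bub1b, encoding the checkpoint protein BUBR1, was 874 to 917 and 1848 to 1962 in VM-3055, 663 to 769 and 2022 to 2180 in VIM-3039, and 1277 to 1357 and 2731 to 2797 in MYC-2983 cells (log2 change 1.07 ± 0.043, 1.55 ± 0.045 and 1.07 ± 0.027 SE). Kif11, the motor that pushes spindle poles apart, was 1464 to 1701 and 3177 to 3521, 1086 to 1263 and 2652 to 2718, and 1463 to 1518 and 3040 to 3104 in the same order (1.07 ± 0.051, 1.20 ± 0.039 and 1.04 ± 0.025 SE). Several of these lie close to the threshold of 1, as do Cdca8 in VM-3055 (1.01), Mad2l1 in VIM-3039 (1.02) and, just below it, Spc24 in MYC-2983 cells (0.99).

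The genes of mitotic entry rose in all lines, 6 of 6 at an adjusted p under 0.05 in each, with 2 called in VM-3055, 3 in VIM-3039 and none in MYC-2983 cells. Ccnb1 was 1123, 1149, 1114 and 1157 without and 2449, 2479, 2547 and 2496 with Dox in VM-3055, 542, 643, 580 and 494 and 1568, 1613, 1640 and 1596 in VIM-3039 cells. In MYC-2983 cells Ccnb1 was 1306, 1259, 1390 and 1298 without and 2216, 2200, 2144 and 2089 with Dox. All Dox libraries were above those without, by 1.13 ± 0.04, 1.51 ± 0.057 and 0.72 ± 0.032 SE on the log2 scale (adjusted p = 4.29e-14, 4.07e-16 and 2.91e-13). Cdk1 was 2066, 2256, 2282 and 2116 without and 4912, 5023, 4985 and 5171 with Dox in VM-3055, 1963, 2116, 2050 and 2023 and 4530, 4540, 4312 and 4299 in VIM-3039 cells. In MYC-2983 cells Cdk1 was 2650, 2487, 2531 and 2600 without and 3887, 3878, 3867 and 3920 with Dox (log2 changes in VM-3055, VIM-3039 and MYC-2983 1.20 ± 0.044, 1.12 ± 0.033 and 0.60 ± 0.025 SE). Cdc25b rose by 0.85 ± 0.047, 0.96 ± 0.047 and 0.92 ± 0.035 SE and was not called in any line. Ccnb2, with 3 CCAAT boxes in the printed stretch, rose by 0.51, 0.68 and 0.62, less than Ccnb1 in each line. Among the kinases Plk1 was 929, 950, 1020 and 1101 without and 2256, 2237, 2073 and 2118 with Dox in VM-3055, 815, 922, 871 and 944 and 2208, 2107, 2083 and 2308 in VIM-3039 cells. In MYC-2983 cells Plk1 was 1485, 1533, 1530 and 1485 without and 2542, 2390, 2576 and 2563 with Dox. The change was 1.12 ± 0.054, 1.29 ± 0.045 and 0.74 ± 0.029 SE, called in the lines without Vhl. Aurka changed by 1.11, 1.17 and 0.54, and Nek2, a centrosome kinase, by 0.83, 1.20 and 0.66.

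Of the 4 spindle genes Kif11 alone was called in every line, and Tpx2 changed least in VM-3055 and VIM-3039 cells: it was 3181 to 3563 and 4000 to 4176 in VM-3055, 2598 to 2734 and 3232 to 3367 in VIM-3039, and 3135 to 3220 and 3853 to 3878 in MYC-2983 cells. The groups did not overlap, yet the log2 change was only 0.29 ± 0.044, 0.32 ± 0.03 and 0.28 ± 0.023 SE (adjusted p = 1.13e-05, 3.82e-09 and 1.79e-09). The chromokinesin gene Kif4 changed by 0.43, 0.72 and 0.28. All 7 kinetochore genes rose in each line, with medians of 0.55, 0.87 and 0.59, and Cenpa, the histone variant that marks centromeres, rose most among them in the lines without Vhl (1.21 ± 0.045 and 1.46 ± 0.043 SE, and 0.91 ± 0.028 SE in MYC-2983). The subunits of the NDC80 complex differed among themselves. Spc24 changed by 0.91, 1.12 and 0.99, Spc25 by 0.53, 0.87 and 0.66, Nuf2 by 0.73, 0.84 and 0.48, and Ndc80 by 0.38, 0.65 and 0.48. The 4 checkpoint genes had medians of 1.02, 1.29 and 0.65, and all 4 were called in VIM-3039 cells. Mad2l1 changed by 0.98 ± 0.057, 1.02 ± 0.041 and 0.55 ± 0.029 SE, with 855 to 987 without and 1645 to 1935 units with Dox in VM-3055, 832 to 909 without and 1634 to 1846 with Dox in VIM-3039 and 973 to 1037 without and 1441 to 1498 with Dox in MYC-2983 cells. The 4 passenger genes had medians of 1.06, 1.17 and 0.81. Birc5 was 1053 to 1100 without and 2031 to 2169 with Dox, 795 to 892 without and 1797 to 1997 with Dox and 1683 to 1777 without and 2582 to 2672 with Dox units in the 3 lines (0.96 ± 0.042, 1.14 ± 0.043 and 0.59 ± 0.026 SE).

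Among the anaphase genes lay both the largest rise and the only fall. Cdc20 (chr4:118105506-118109957, minus strand) was 1207, 1171, 1240 and 1257 units without and 3373, 3260, 3050 and 3160 with Dox in VM-3055, 905, 839, 872 and 943 and 3341, 3151, 3224 and 3264 in VIM-3039 cells. In MYC-2983 cells Cdc20 was 1902, 1867, 1988 and 2003 without and 3639, 3679, 3743 and 3747 with Dox. No library with Dox overlapped one without in the same line, and without Dox the MYC-2983 libraries lay above those of the other lines. The change was 1.40 ± 0.044, 1.87 ± 0.037 and 0.93 ± 0.027 SE (adjusted p = 1.21e-14, 1.95e-20 and 9.86e-16), a 3.65-fold rise in VIM-3039 cells. Pttg1 (chr11:43233752-43239753, minus strand) went the other way in 2 lines: it was 178, 190, 178 and 180 without and 87.9, 106, 104 and 95.6 with Dox in VM-3055, 349, 372, 372 and 372 and 296, 322, 303 and 294 in MYC-2983, but 326, 337, 330 and 364 and 476, 414, 460 and 464 in VIM-3039 cells. In each line the groups did not overlap. The log2 change was −0.88 ± 0.096 SE in VM-3055 (adjusted p = 1.85e-07), −0.27 ± 0.047 SE in MYC-2983 (adjusted p = 4.92e-05) and 0.42 ± 0.06 SE in VIM-3039 cells (adjusted p = 1.64e-06), none past the fold threshold. Espl1, whose product securin inhibits, rose in all 3 lines.

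The 6 cytokinesis genes had median changes of 0.60, 0.84 and 0.35 in VM-3055, VIM-3039 and MYC-2983 cells, beside 0.85, 1.1 and 0.62 over the set, and 6, 6 and 5 of them rose. Anln, which encodes the scaffold protein anillin, was 3648, 3598, 3829 and 3756 units without and 3540, 3546, 3541 and 3757 with Dox in MYC-2983 cells. The groups overlapped through Dox library 4 alone, since the other 3 lay below all 4 libraries without Dox. The log2 change was −0.04 ± 0.028 SE (adjusted p = 0.165), and without that library it was −0.07 and passed (adjusted p = 0.0411). After TMM rescaling the direction turned (0.09, adjusted p = 0.00524), and 40 of the 41 genes were then higher in this line. In the other lines it rose, with 2802 to 3022 without and 3927 to 4136 with Dox in VM-3055 (0.48 ± 0.042 SE) and 2580 to 2737 without and 3915 to 4144 with Dox in VIM-3039 (0.60 ± 0.031 SE). Kif23, a centralspindlin motor, changed by 0.43, 0.88 and 0.14, and Prc1, which bundles the central spindle, by 0.54, 0.65 and 0.32. The chromosome genes Top2a and Mki67 rose in every line. Top2a was 5416, 6069, 5051 and 5534 without and 10428, 10135, 10862 and 10448 with Dox in VM-3055, 3893, 4111, 3771 and 3745 and 8029, 8382, 8749 and 8539 in VIM-3039 cells. In MYC-2983 cells Top2a was 7492, 7373, 7388 and 7515 without and 12467, 12668, 12488 and 12925 with Dox (log2 changes in VM-3055, VIM-3039 and MYC-2983 0.93 ± 0.053, 1.12 ± 0.035 and 0.76 ± 0.025 SE). Mki67 rose by 0.73 ± 0.087, 0.98 ± 0.034 and 0.66 ± 0.042 SE, with 3072 to 4550 and 5466 to 6602 units in VM-3055, 2407 to 2603 and 4785 to 5074 in VIM-3039, and 2984 to 3259 and 4515 to 5336 in MYC-2983 cells.

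**Figure D4:**
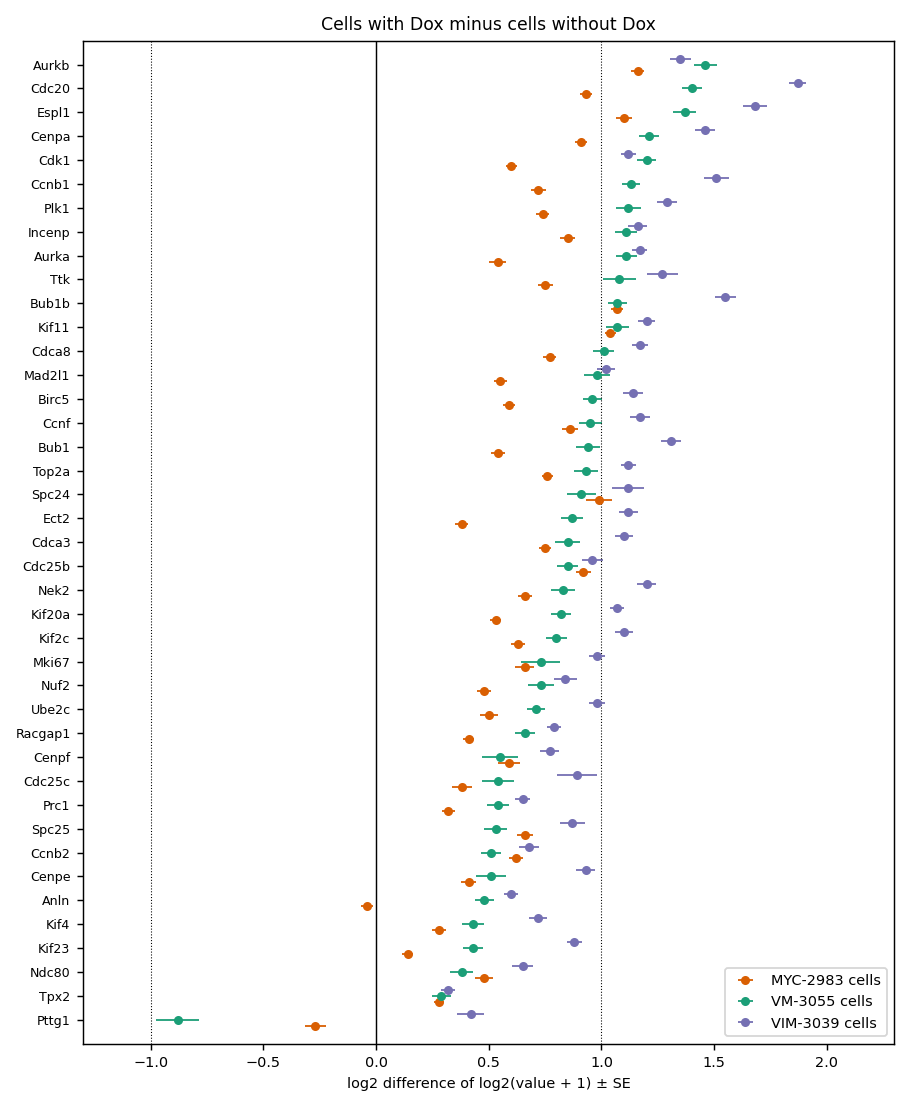
Log2 change with Dox and its SE (horizontal axis) for each of the 41 genes (vertical axis, ordered by VM-3055), 1 colour per line. Dotted lines mark a log2 change of 1 in either direction. Cdc20 in VIM-3039 cells lies farthest right at 1.87, Tpx2 lies near 0.3 in all lines, and Pttg1 lies left of 0 in VM-3055 and MYC-2983 cells.

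The size of the change varied over the set in a like way in the 3 lines, which share no libraries. Over the 41 genes Pearson's r between the log2 changes was 0.84 for VM-3055 and VIM-3039, 0.82 for VM-3055 and MYC-2983 and 0.76 for VIM-3039 and MYC-2983, and 0.90, 0.77 and 0.73 without Pttg1 (genes are not independent replicates, and those of 1 line come from the same libraries). Among the 35 genes with a promoter entry, the 28 with a CCAAT box had median changes of 0.90, 1.12 and 0.66 in VM-3055, VIM-3039 and MYC-2983 cells, and the 7 without had 0.73, 0.84 and 0.48, with wide overlap (0.43 to 1.40 against −0.88 to 0.98 in VM-3055).

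Whether Dox acted on the set to a different extent between lines was read from the line by Dox interaction. Compared with MYC-2983, the change was larger in VIM-3039 cells for 37 of the 41 genes at an adjusted p under 0.05 (23.9% of the 15630 genes tested) and smaller for none (23.6%), with a median of 0.47 over the set and 0.01 over all genes. After TMM rescaling 33 were larger and none smaller. VM-3055 cells exceeded MYC-2983 for 26 genes (17.5%), with Pttg1 in the other direction (28.7%), a split of 26 and 1 that TMM rescaling left as it was. For VIM-3039 against VM-3055, 25 genes had a larger change in VIM-3039 (22.8%) and none a smaller (10.5%), but after TMM rescaling the counts were 10 and 2, so this difference depended on the scaling. In terms of log2 differences over 1, only Pttg1 was called, in VIM-3039 against VM-3055 (1.30 ± 0.1 SE, adjusted p = 2.4e-09; 3.7% of all genes called larger and 2.35% smaller). No gene of the set was called for VM-3055 against MYC-2983 (3.26% larger and 5.53% smaller over all genes) or VIM-3039 against MYC-2983 (4.54% and 4.52%). Of the 10 genes followed in every comparison the interaction was −0.11 to 0.47 for VIM-3039 against VM-3055, −0.08 to 0.61 for VM-3055 against MYC-2983 and 0.04 to 0.93 for VIM-3039 against MYC-2983, with Cdc20 highest in the last. Anln (0.64 ± 0.041 SE) and Ect2 (0.73 ± 0.048 SE) were among those with a larger change in VIM-3039 than in MYC-2983 cells.

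With Dox the 3 lines were close in most genes. Between VIM-3039 and VM-3055 the only calls were Pttg1, higher in VIM-3039 (9.69% of all genes), and Ect2, lower (9.45%). Pttg1 was at 414 to 476 units in VIM-3039 and 87.9 to 106 in VM-3055, 4.58-fold apart (log2 difference 2.19 ± 0.079 SE, adjusted p = 5.05e-13), and in the same lines without Dox the log2 difference was 0.90 and not called. Ect2 was 1315, 1438, 1423 and 1384 in VIM-3039 and 3729, 3622, 4022 and 3839 in VM-3055 cells with Dox, −1.45 ± 0.038 SE (adjusted p = 1.01e-14), and 616, 674, 630 and 644 and 1999, 2287, 2003 and 2067 without. The 2 lines did not overlap in either gene. VM-3055 cells held less Pttg1 than MYC-2983 cells (−1.62 ± 0.077 SE, adjusted p = 2.05e-10, 18.1% of all genes called lower), the only call of that comparison as deposited (6.54% of all genes called higher), and VIM-3039 cells less Ect2 than MYC-2983 cells (−1.72 ± 0.031 SE, adjusted p = 5.67e-15, 18.3% of all genes called lower and 5.66% higher), where Ect2 was 4628, 4469, 4535 and 4666 with Dox. At an adjusted p under 0.05 alone, 5 genes were higher and 26 lower in VIM-3039 than in VM-3055 (35.1% and 32.4% of all genes), 10 higher and 26 lower in VIM-3039 than in MYC-2983 (26.4% and 49.7%), and 16 higher and 21 lower in VM-3055 than in MYC-2983 (26.7% and 49.9%). The last split turned to 20 and 13 after TMM rescaling, and that of VIM-3039 against MYC-2983 to 15 and 17. For the 10 genes followed throughout the differences lay between −0.64 and 0.37 in the 3 comparisons.

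**Figure D5:**
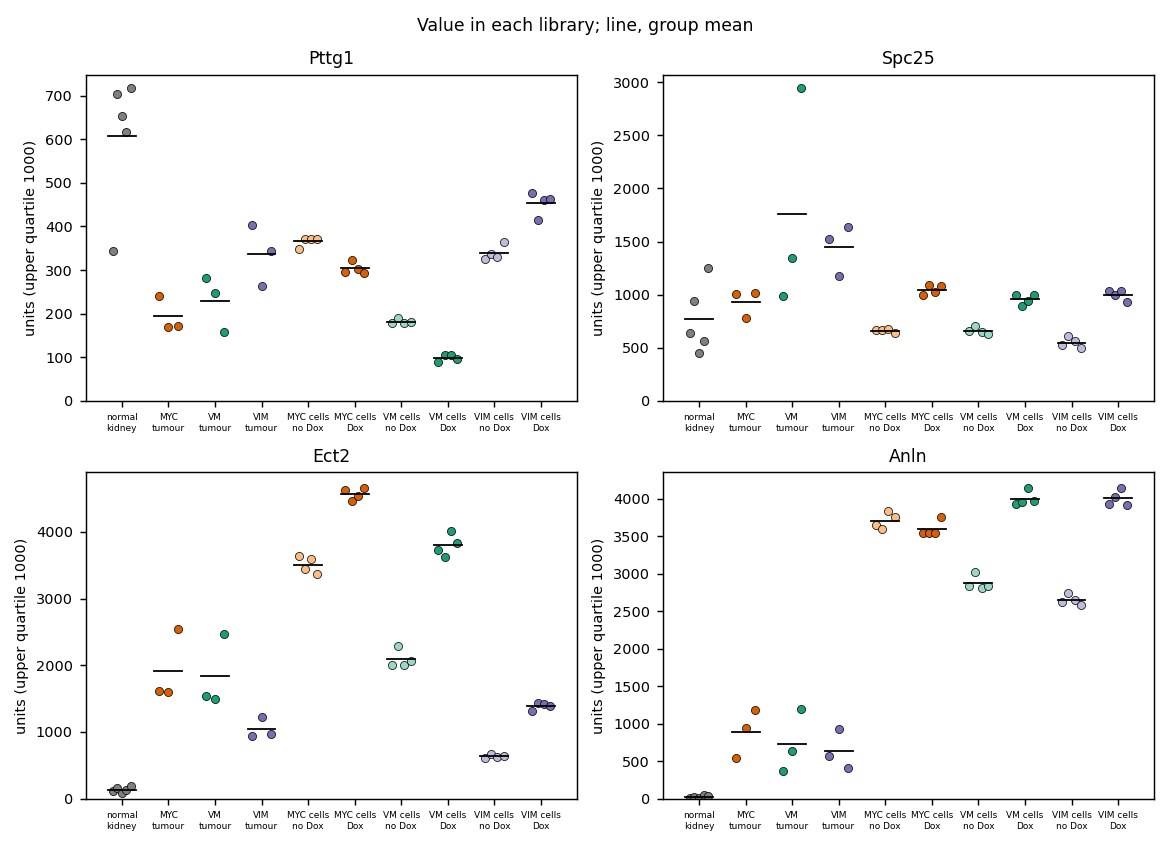
Values in authors' units (vertical axes, from 0) of Pttg1, Spc25, Ect2 and Anln in each library by group (horizontal axes), with a line at the group mean. Pttg1 is highest in 4 of the 5 kidneys and is lower with Dox in MYC and VM cells but higher in VIM cells, Spc25 overlaps between kidney and tumours, Ect2 is low in VIM cells, and Anln overlaps between MYC cells with and without Dox.

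Cell lines with Dox were set beside the tumours of their genotype. More genes were higher in the lines: 29 of 41 were called higher in MYC-2983 cells (11.4% of all genes), 33 higher (12.3%) and 1 lower (28.4%) in VM-3055 cells, and 31 higher (13.3%) in VIM-3039 cells, with medians of 1.42, 1.55 and 1.72 beside −0.25, −0.32 and −0.41 over all genes. The count for MYC-2983 was 18 without MYC tumour library 1, which leaves 1 mouse in that arm, so that the spread comes from the cell libraries and the lone tumour is assumed to vary like them. The named genes with the largest differences were Anln, Kif23, Tpx2, Kif20a and Plk1. Anln was 3540 to 3757 in MYC-2983 cells and 543, 944 and 1179 in MYC tumours (log2 difference 2.24 ± 0.24 SE, adjusted p = 0.000407), and it was also higher in VM-3055 (2.62 ± 0.34 SE) and VIM-3039 cells (2.74 ± 0.24 SE). Kif23 was 2249 to 2467 in VM-3055 cells and 268, 291 and 609 in VM tumours (2.70 ± 0.26 SE, adjusted p = 5.79e-05), and 2118 to 2261 in VIM-3039 cells against 205, 437 and 178 in VIM tumours (3.10 ± 0.28 SE, adjusted p = 4.63e-05). Tpx2, which changed little with Dox, was 2.43 ± 0.25 SE higher in VM-3055 and 2.70 ± 0.35 SE higher in VIM-3039 cells than in their tumours. For MYC-2983, Kif20a, a kinesin of the midzone, followed Anln (2.16 ± 0.2 SE, adjusted p = 0.000192).

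Of the genes followed throughout, Plk1 was higher in each line than in its tumours (2.04 ± 0.16, 2.11 ± 0.23 and 2.40 ± 0.4 SE for MYC, VM and VIM), as were Cdk1 (1.1 ± 0.12, 1.34 ± 0.11 and 1.30 ± 0.11 SE), Aurkb (1.38 ± 0.18, 1.35 ± 0.32 and 1.39 ± 0.22 SE), Cdc20 (1.79 ± 0.39, 1.31 ± 0.16 and 1.62 ± 0.2 SE) and Top2a (1.86 ± 0.22, 2.05 ± 0.38 and 2.60 ± 0.32 SE), all called. Ccnb1 (1.54 ± 0.28, 1.56 ± 0.28 and 0.97 ± 0.14 SE) and Birc5 (1.77 ± 0.13, 0.92 ± 0.26 and 0.91 ± 0.11 SE) passed the adjusted p in all 3 comparisons and the fold threshold in 2 and 1 of them. Mad2l1 differed by 0.84 ± 0.067, 0.88 ± 0.31 and 0.89 ± 0.19 SE and was not called. Cdc25b (0.59 ± 0.27, 1.17 ± 0.18 and 1.05 ± 0.18 SE) and Mki67 (0.34 ± 0.27, 1.01 ± 0.24 and 1.25 ± 0.38 SE) were called in the lines without Vhl, and for MYC-2983 Mki67 was −0.19 without MYC tumour library 1. Pttg1 was lower in VM-3055 cells than in VM tumours (−1.17 ± 0.23 SE, adjusted p = 0.00241), a call lost after TMM rescaling (−0.94). Spc25 was lower in VIM-3039 cells than in VIM tumours at an adjusted p of 0.011 (−0.52 ± 0.14 SE). Beside the tumour of mouse 3055 the median log2 difference over the set was 1.49 in VM-3055 cells with Dox and 0.52 without. With Dox, Spc25 and Pttg1 were lower in all 4 VM-3055 libraries than in that tumour. For MYC-2983 cells and both libraries of mouse 2983 the medians were 1.02 with Dox and 0.37 without. No median over all genes was computed for these comparisons within a mouse. A tumour holds other cells beside the transformed ones, and in tumours the leukocyte markers summed to 2186 to 15237 units against 217.5 to 1013 in the lines. Their part in the difference was not tested.

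Related lists of genes, none of them members, were read in the same fits. Of 63 further mitosis genes in the table (of 65 listed), 56 rose and 3 fell with Dox at an adjusted p under 0.05 in VM-3055, 60 and 2 in VIM-3039 and 58 and 2 in MYC-2983 cells, with medians of 0.71, 0.95 and 0.54. Trip13, an ATPase that acts on MAD2, rose most of them in VM-3055 (1.62 ± 0.056 SE) and equally with Pbk in VIM-3039 cells (1.71 ± 0.048 SE), while Zwint, a kinetochore protein gene, was lower in all 3 lines (−0.38, −0.38 and −0.39). Of 13 genes of the anaphase-promoting complex and its enzyme UBE2S, 7, 6 and 7 rose and 4, 4 and 3 fell, with medians of 0.10, −0.06 and 0.12. Ube2s was the only call of this list, in VM-3055 (1.01 ± 0.073 SE). In tumours against kidney the same list had medians of 0.39, 0.38 and 0.41 for MYC, VM and VIM, beside 5.55, 5.30 and 5.0 for the 41 genes. DNA replication genes (22) rose with Dox in 22, 22 and 21 cases, with medians of 0.96, 1.22 and 0.61, close to those of the mitosis set.

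Among 20 regulators of the late cell cycle, 15 rose and 3 fell with Dox in VM-3055, 16 rose and 2 fell in VIM-3039, and 15 rose and 1 fell in MYC-2983 cells. Mybl2, the B-MYB factor, was 319, 350, 348 and 341 units without and 1892, 1844, 1758 and 1795 with Dox in VM-3055, 342, 326, 300 and 343 and 1540, 1513, 1432 and 1403 in VIM-3039 cells. In MYC-2983 cells Mybl2 was 501, 487, 506 and 496 without and 1112, 1149, 1149 and 1161 with Dox. It rose by 2.42 ± 0.05, 2.16 ± 0.049 and 1.20 ± 0.031 SE (adjusted p = 1.33e-16, 1.27e-19 and 1.99e-16), more than any of the 41 genes in each line. Foxm1 changed by 0.48 ± 0.05, 0.56 ± 0.039 and 0.15 ± 0.025 SE and was not called. The MuvB subunit genes Lin9 and Lin54 rose (0.56, 0.73 and 0.34, and 0.55, 0.49 and 0.45), while Lin37 fell in the lines without Vhl (−0.53 and −0.56). Fbxo5, the inhibitor of the anaphase-promoting complex also known as EMI1, rose by 1.14 ± 0.062, 1.24 ± 0.058 and 0.69 ± 0.039 SE, and cyclin A2 (Ccna2) by 1.1 ± 0.048, 1.21 ± 0.039 and 0.89 ± 0.04 SE.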

How the data were processed

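RNA-seq values of 38 mouse libraries were taken from the deposited table. The authors made these values, whose unit is a gene-level signal, from RSEM estimates brought to an upper quartile of 1000 in all libraries. The submitters' processing notes and the study's methods name MapSplice, SAMtools, Picard 1.64, UBU 1.0 and UCSC knownGene on mm9. A TruSeq Stranded kit was used, and whether the counting used strand is not given in the sources used here. Of the deposited values, 94.1% to 95.9% per library came out as whole reads (within 0.02), which gave 8.22 to 36.6 M estimated reads per library. A floor of 3 reads covers counting error only.

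Differences were tested in R 4.3.3 with limma 3.58.1 on log2(value + 1), so fold changes of low genes are understated, with Benjamini-Hochberg adjustment over all genes tested. Genes entered with a value above 0 in at least 4 libraries (cells) or 2 (tumours). The 2 libraries of mouse 2983 were averaged. Tests were two-sided, and 3 of the comparisons were tested on simulated data with 200 planted log2 changes of 2 in either direction. Of these, 195 were called for Dox in VM-3055 and 199 for the interaction of VIM-3039 and VM-3055. In VM tumours against kidney 127 were called. Unchanged genes called were 3, 3 and 5. No comparison between tumour kinds was simulated. A gene was called at an adjusted p under 0.05 and a log2 change over 1. Alternatives were other pseudocounts, TMM or quantile scaling, voom, other filters, a replicate block and leaving out each replicate. Named genes were Ccnb1, Cdk1, Plk1, Aurkb, Cdc20, Top2a, Mki67, Birc5, Mad2l1 and Cdc25b whatever their result, with up to 3 largest rises and falls among called genes whose higher group averaged 50 units or more and groups that did not overlap. These 10 genes are given in full for Dox, tumours against kidney and cells against tumours, and as a range elsewhere. Other named genes were chosen after their values were seen. The members and lists were chosen with earlier results of these data known.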

Additional observations from a re-analysis of the deposited data

Results flagged for a closer look

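Of 161 checks of a group for a library far from the rest, 7 found one, where chance gives about 1 in 20. Ccnb2 was 55.4 units in normal kidney replicate 4 and 7.59 to 10.7 in the other 4 kidneys. Pttg1 was 343 in normal kidney replicate 1, with 617 to 717 in the others, and 349 in MYC-2983 cells without Dox replicate 1. Anln was 3757 in MYC-2983 cells with Dox replicate 4 and 3022 in VM-3055 cells without Dox replicate 2. Ccnb2 was 1004 in MYC-2983 cells without Dox replicate 3, and Ndc80 was 780 in VM-3055 cells with Dox replicate 3. The Dox change of Pttg1 differed between VIM-3039 and VM-3055 cells by 1.30 on the log2 scale (limma's interaction test, adjusted p = 2.4e-09).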

How the results depend on the processing

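Of 317 recomputed counts of called genes, 308 stayed within 1.5 times the reported count. Many had little room to move: counts that stayed at 0, as between tumour kinds, are included, and those against kidney were near all 41 genes. The rule also takes 13 and 18 calls with Dox in VM-3055, as deposited and with quantile normalization, as unchanged. With TMM rescaling the counts called with Dox were 25 in VM-3055 (13 as deposited) and 8 in MYC-2983 cells (4), and 8 with voom in MYC-2983. Over all genes the counts called higher with TMM were 1412 in VM-3055 (847 as deposited) and 901 in MYC-2983 cells (678). VM-3055 against MYC-2983 cells with Dox gave 2 calls with TMM, quantile normalization and voom (1 as deposited), and VIM-3039 against MYC-2983 gave 8 when cells without Dox were compared (1). The cause was not tested. Leaving out each replicate gave 12 to 14 calls with Dox in VM-3055, 23 to 24 in VIM-3039 and 4 to 5 in MYC-2983 cells. The interactions gave 1 to 1, 0 to 0 and 0 to 0, and lines with Dox 2 to 2 (VIM-3039 against VM-3055), 1 to 2 (VM-3055 against MYC-2983) and 1 to 1. Tumours against kidney gave 40 to 40 (MYC), 40 to 41 (VM) and 39 to 40 (VIM), and cells against tumours 18 to 33 (MYC), 27 to 37 (VM) and 27 to 32 (VIM). The 18, and the Mki67 value below, come from a fit with 1 MYC tumour mouse, assumed to vary like the cell libraries. Reversals were counted for the genes followed throughout and for those named for the largest changes in a comparison. The only one so counted was Mki67 in MYC-2983 cells against MYC tumours, −0.19 without MYC tumour replicate 1 (0.34 over all). Its range was −0.19 to 0.66 as single replicates were left out. Outside that count, the Dox change of Anln in MYC-2983 cells also turned. It was −0.04 as deposited, 0.09 with TMM, 0.09 with voom and 0.01 with quantile normalization. With a replicate block the counts were 13, 24, 1 and 2 for Dox in VM-3055 and VIM-3039, their interaction and their comparison with Dox, as without it. Same-numbered libraries did not deviate together on average (mean correlation −0.184 in VM-3055, 0.0154 in VIM-3039 and 0.058 between the lines with Dox). With 4 libraries a group this cannot show whether they shared a plating or a day, and MYC-2983 was not examined. Pttg1 in VM-3055 cells against VM tumours was not called with TMM (−0.94), quantile normalization (−0.51) or voom (−1.0). The share of lower calls among all genes with quantile normalization was 50.6%, 50.5% and 57.9% for Dox in VM-3055, VIM-3039 and MYC-2983 cells. Depth limits the kidney values, where 9 of the 41 genes had 3 or fewer reads in at least 1 library.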
